A study of Mus musculus with 12 samples.

Results

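Insl3, Lhcgr, Prlr, Ptgds, Rarres1, Vcam1, Cst8, Ren1, Gata4 and Gata6 code for the hormone INSL3, receptors, surface and secreted products and GATA factors that are associated with the adult Leydig cell, the testosterone-producing cell of the testis interstitium. They were taken as every non-control probe of the array whose gene name in the scanner files is one of these 10 names, which gave 18 of 41174 probes. Of these, 14 probes of 9 genes were kept after a filter on dim signals, among 21194 probes of 15828 genes kept in all. Gata4 was not kept.

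The material was Leydig cells cut by laser capture from frozen testis sections of adult male C57BL/6J mice, 21 weeks of age at collection. DEHP mice had received di-(2-ethylhexyl)-phthalate, a plasticiser, by daily gavage in corn oil at 200 mg per kg per day for 21 days, and vehicle mice had received corn oil alone over the same time. RNA came from 1 capture cap per mouse and was amplified for 2 rounds, so that each mouse stands as 1 extract of a selected part of the testis. Two-colour Agilent arrays set 2 DEHP mice, numbered 1 and 4 in the labels, against 3 vehicle mice, numbered 1, 2 and 4, in every pair and in both dye orientations, which makes 12 arrays on 3 slides. The labels speak of 4 mice per group, and the others are not analysed here.

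INSL3 is a peptide hormone of the relaxin family, secreted by Leydig cells, which acts through the receptor RXFP2 and drives the descent of the testis. LHCGR, the receptor for luteinising hormone, raises cyclic AMP and with it testosterone synthesis, and PRLR, the prolactin receptor, signals through JAK2 and STAT5. Ptgds makes prostaglandin D2 and also carries small lipophilic molecules, Rarres1 is a retinoid-responsive gene of the latexin family, Vcam1 is an adhesion molecule bound by integrins of leukocytes, Cst8 is a cystatin-related protein known from spermatids and epididymis, and Ren1 is renin, which cleaves angiotensinogen. Gata4 and Gata6 are zinc-finger transcription factors of the somatic cells of the gonad.

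The probes are shown because the values of Prlr and Vcam1 depended on which of them was read. Each is a 60-base oligonucleotide, of which the first 30 bases are given, 5′ to 3′ and in lower case with no base singled out, with its position on mouse assembly mm7 as the scanner files give it.
Insl3, chr8:70157953-70158012, plus strand: ctcctggctatgtcattgcaacaacccagt
Ptgds, chr2:25474633-25475164, minus strand: tcacagaggaggacattgttttcctgcccc
Prlr, probe 1 by brightness, chr15:10398442-10398501, plus strand: tctccatccactttgtagggacaacatgga
Prlr, probe 2 by brightness, chr15:10387524-10387583, plus strand: cttgaaagacacaactgtgtggatcattgt
Prlr, probe 3 by brightness, chr15:10394904-10394963, plus strand: gactttccattctgaaaacaatgttgattc
Vcam1, probe 1 by brightness, chr3:115885211-115885270, minus strand: tatatttttataggcaaatggtaaagaggt
Vcam1, probe 2 by brightness, chr3:115900948-115901007, minus strand: aaccaagagtttggaagtaacctttactcc
Vcam1, probe 3 by brightness, chr3:115891967-115892026, minus strand: ggggaacaatgaatcaagatactagtgatt
Cst8, chr2:148546309-148546368, plus strand: ctggaatggcgagttcaacctgttgagcaa
The Ptgds probe spans 532 bases of the genome and thus lies across an intron. The files list the Insl3 probe also under an accession of Jak3, a kinase gene that overlaps Insl3 in RefSeq, and the Ren1 probe also under Ren2, the other mouse renin gene, so these probes do not tell the paired transcripts apart. The other probes lie at chr17:87049193-87049252 for Lhcgr, chr3:67580162-67580221 for Rarres1 and chr1:133261002-133261061 for the Ren1 probe used.

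The promoters of the hormone gene, of Ptgds and of Cst8 are shown because the first pair varied most between mice and the third did not overlap between the groups. The promoter table of RefSeq (build GRCm38.p6) held 9 promoters for 7 of the 10 genes, namely Insl3, Lhcgr, Prlr, Ptgds, Rarres1, Cst8 and Ren1. The 250 bases before each start were searched on both strands for the word AGATAA, the word AGATAG, the word TGATAA and the word TGATAG, which GATA factors read, and for the word AAGGTCA and the word CAAGGTC, forms of the half-site read by the steroidogenic factor NR5A1. The last pair of words overlap by 6 bases, and CAAGGTC was added after the promoters had been read. Capitals mark the matches to the half-site words.
Insl3, chr8:71689002-71689251, plus strand: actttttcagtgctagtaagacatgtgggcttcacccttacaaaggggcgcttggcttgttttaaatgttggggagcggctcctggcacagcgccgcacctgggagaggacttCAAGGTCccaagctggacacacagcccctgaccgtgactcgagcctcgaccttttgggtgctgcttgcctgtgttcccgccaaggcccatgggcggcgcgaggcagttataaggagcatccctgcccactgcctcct
Ptgds, chr2:25469750-25469999, minus strand: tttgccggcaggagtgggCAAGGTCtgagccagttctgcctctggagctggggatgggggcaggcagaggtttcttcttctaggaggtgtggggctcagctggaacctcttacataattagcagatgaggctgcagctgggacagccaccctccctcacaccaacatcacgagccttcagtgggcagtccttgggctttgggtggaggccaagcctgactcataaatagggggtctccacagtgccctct
Cst8, chr2:148798589-148798838, plus strand: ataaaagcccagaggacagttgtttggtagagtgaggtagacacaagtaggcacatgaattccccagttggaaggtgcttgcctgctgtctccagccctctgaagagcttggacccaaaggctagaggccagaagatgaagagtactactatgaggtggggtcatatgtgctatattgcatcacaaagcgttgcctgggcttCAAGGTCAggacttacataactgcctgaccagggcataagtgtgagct
CAAGGTC began 137 bases before the start of Insl3, 232 before that of Ptgds and 48 before that of Cst8. The promoters of Lhcgr, Prlr, Rarres1 and Ren1 did not hold it. It was present in 3.32% of the 32851 promoters of the table. Since the word was picked after these promoters had been read, that share cannot serve as a test of the 3 matches. AAGGTCA was found in Cst8 only among these 7 genes, against 4.08% of all promoters. A GATA word was found in 1 of the promoters of Prlr and in none of the other genes searched, against 26.5% of all promoters. These matches describe the letters of the window and nothing about binding.

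The share of spots well above background was 45.4% to 54.4% in red and 35.5% to 46.1% in green over the 12 arrays. Values are given on the log2 scale as a mouse's level minus the mean over all 5 mice, solved from the 12 log ratios of DEHP over vehicle, and group values as mean ± SD with n = 2 DEHP and n = 3 vehicle mice. The number of arrays limits the precision of each mouse's value, and the number of mice that of the group comparison. All 10 genes of a Leydig reference list (Star, Cyp11a1, Fdx1, Fdxr, Hsd3b1, Hsd3b6, Cyp17a1, Hsd17b3, Scarb1 and Nr5a1) passed the filter on dim signals, 8 of them well above background on every array. All 20 spermatid markers looked for also passed, so passing the filter does not by itself show which cells were captured.

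Insl3, the hormone gene, was among the genes that differed most between animals and not between the groups. It lay at 0.91 and -1.29 in DEHP mice 1 and 4, against -1.02, 0.50 and 0.90 in vehicle mice 1, 2 and 4. The highest and the lowest value both came from DEHP mice, and the vehicle mice fell between them. The mean was -0.19 ± 1.55 in DEHP mice, against 0.13 ± 1.01 in vehicle mice, and their log2 difference was -0.32 (SE 0.83, 95% interval -2.36 to 1.73, adjusted p = 1.00 in limma). In these bulk extracts fewer Leydig cells and less RNA per cell cannot be told apart. Both groups' channels were well above background for the probe on each of 12 arrays, at normalized log2 intensities of 16.8 and 15.4 in DEHP mice, against 15.6, 16.8 and 16.9 in vehicle mice. Its range across the 5 mice was 4.59-fold, and 1.39% of all genes had a range as large.

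**Figure D1:**
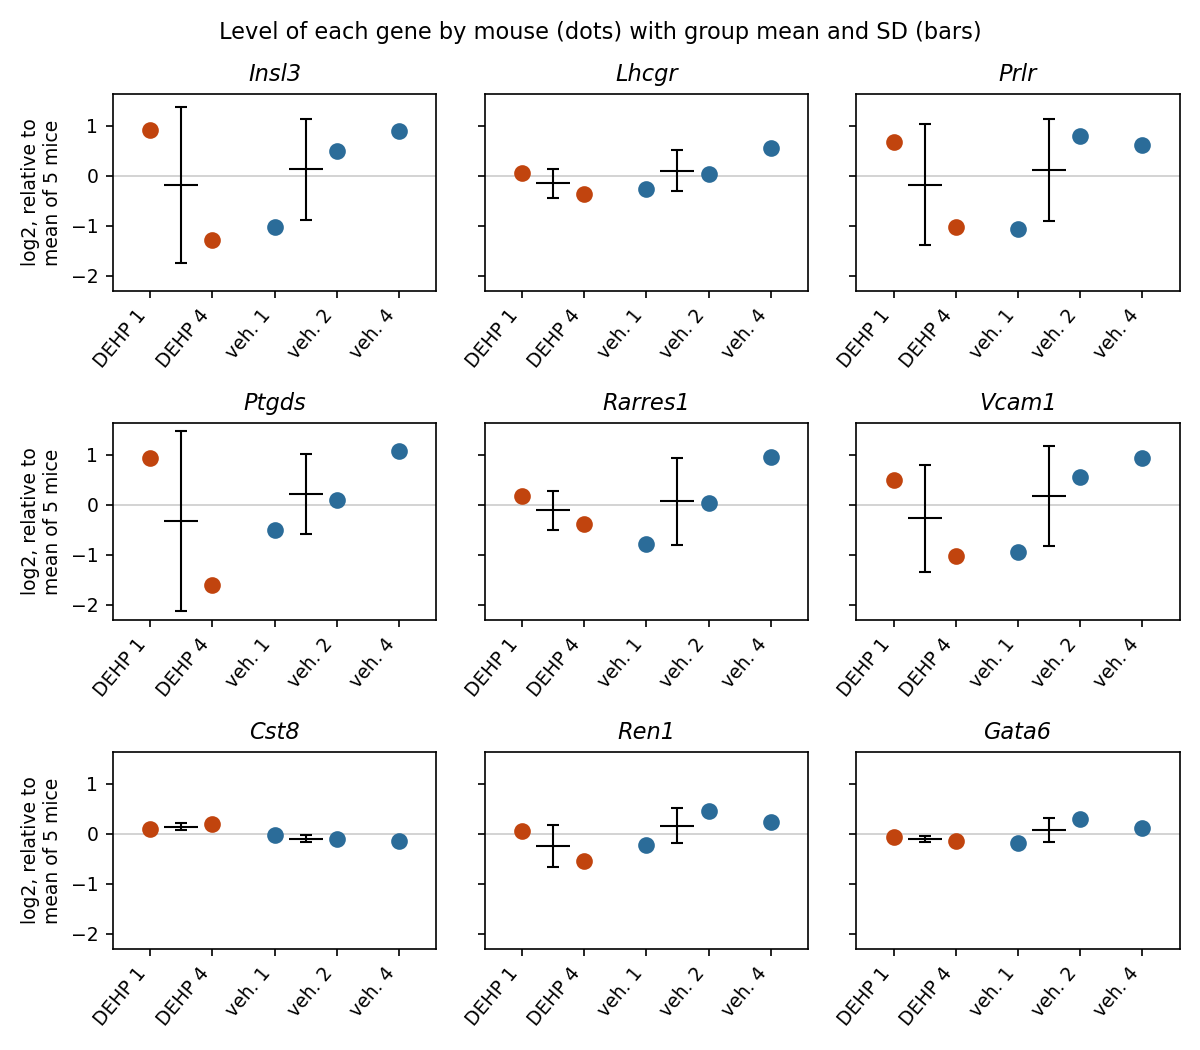
Levels of the 9 kept genes in each mouse (log2, relative to the mean of the 5 mice), with DEHP mice in orange left of vehicle mice in blue and bars for the group mean and SD. DEHP mouse 4 and vehicle mouse 1 are the lowest mice in every panel but that of Cst8, whose values stay within 0.35 of one another.

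For both receptors, with Prlr read by its brightest probe, DEHP mouse 4 and vehicle mouse 1 were again the lowest mice. By that probe Prlr lay at 0.68 and -1.03 in DEHP mice 1 and 4, against -1.06, 0.80 and 0.61 in vehicle mice 1, 2 and 4. DEHP mouse 4 and vehicle mouse 1 thus stood together at the low end and the other 3 mice together at the high end. The group means were -0.17 ± 1.21 for DEHP and 0.12 ± 1.02 for vehicle, and they differed by -0.29 (SE 0.74, 95% interval -2.13 to 1.55, adjusted p = 1.00 in limma). Lhcgr, the gate of the cell to luteinising hormone, lay at 0.05 and -0.36 in DEHP mice, against -0.27, 0.03 and 0.55 in vehicle mice. Its groups overlapped, with a difference of -0.25 (SE 0.31, 95% interval -1.01 to 0.51). The size of that difference depended on the background correction and on single mice, at -1.04 (SE 1.05) with Agilent's processed signals, -0.42 with a normexp offset of 10, and -0.46 to -0.03 without 1 mouse. The Lhcgr probe was dim, well above background on 7 of 12 arrays in DEHP and 10 of 12 in vehicle channels, with log2 intensities of 6.71 and 6.24 in DEHP mice, against 6.36, 6.69 and 7.13 in vehicle mice, so that its 1.87-fold range is measured near the floor of the array.

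The 3 Prlr probes did not give the same picture. The second probe lay at 0.32 and -0.34 in DEHP mice, against -0.13, -0.40 and 0.55 in vehicle mice, and the third at 0.28 and -0.34 in DEHP mice, against -0.42, 0.25 and 0.23 in vehicle mice. The third kept the order of groups of mice seen with the brightest probe at a smaller range, 0.70 against 1.85. The second placed vehicle mouse 2 lowest, where the brightest probe placed it highest. Both dimmer probes gave group differences close to 0, -0.02 (SE 0.36) and -0.05 (SE 0.31). Only the second probe is annotated to the RefSeq transcript of Prlr, and its lowest mice were vehicle mouse 2 and DEHP mouse 4. The low pair of DEHP mouse 4 and vehicle mouse 1 given for Prlr thus rests on the brightest and the third probe. Beyond these annotations, which transcript forms of Prlr each probe reads was not looked up.

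Among the secreted products, Ptgds had the widest range of the 9 genes. It lay at 0.94 and -1.60 in DEHP mice 1 and 4, against -0.50, 0.09 and 1.08 in vehicle mice 1, 2 and 4, with normalized log2 intensities of 16.4 and 14.5 in DEHP mice, against 15.4, 15.9 and 16.8 in vehicle mice. DEHP mouse 4 stood alone at the bottom, while DEHP mouse 1 was among the highest. This is a 6.42-fold range, and 0.253% of all genes had one as large. The group means were -0.33 ± 1.80 for DEHP and 0.22 ± 0.80 for vehicle, and they differed by -0.55 (SE 0.83, 95% interval -2.61 to 1.50, adjusted p = 1.00 in limma). Rarres1 lay at 0.17 and -0.38 in DEHP mice, against -0.78, 0.03 and 0.96 in vehicle mice. Both DEHP mice lay inside the span of the vehicle mice, with a difference of -0.18 (SE 0.52, 95% interval -1.48 to 1.12). Ren1 lay at 0.06 and -0.54 in DEHP mice, against -0.22, 0.46 and 0.23 in vehicle mice. Both DEHP mice were below vehicle mice 2 and 4 but only 1 of them below vehicle mouse 1, and the difference was -0.40 (SE 0.31, 95% interval -1.16 to 0.36). It was -0.65 with Agilent's processed signals and -0.70 to -0.10 without 1 mouse. A second Ren1 probe, which the files do not list under Ren2, was well above background on no array. A probe that they name Ren2 differed by -0.28 (SE 0.23), at dim mean log2 intensities of 6.79 in DEHP and 7.07 in vehicle mice. Which transcript it read in this strain was not looked up.

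Cst8 was the exception among the 9 genes in its order of mice, its direction and its range. It lay at 0.10 and 0.19 in DEHP mice 1 and 4, against -0.03, -0.10 and -0.15 in vehicle mice 1, 2 and 4. Both DEHP mice were above all 3 vehicle mice, and the whole range was 1.27-fold, with 84.4% of all genes ranging at least as widely. The means were 0.14 ± 0.07 for DEHP and -0.10 ± 0.06 for vehicle, and their log2 difference was 0.24 (SE 0.18, 95% interval -0.21 to 0.70) with an unadjusted p of 0.241 and an adjusted p of 1.00 in limma. With median centring of the arrays in place of loess the groups overlapped. The log ratio was above 0 on 12 of 12 arrays and in 6 of 6 pairs of mice, from 0.11 for DEHP mouse 1 over vehicle mouse 1 to 0.34 for DEHP mouse 4 over vehicle mouse 4. The arrays hybridised the same extracts repeatedly, so these counts largely restate that both DEHP mice were above all vehicle mice. They are no separate support. The standard error of 0.18 is moderated over all genes, while the SD was 0.07 among DEHP mice and 0.06 among vehicle mice. Spermatids are cells in which this gene is known to be made. Their markers had list medians of -0.01 and 0.75 in DEHP mice, against 0.20, -0.55 and -0.36 in vehicle mice, which overlapped. The summed normalized intensity of these markers, in units of 1000, was 787 and 968 in DEHP mice, against 668, 488 and 476 in vehicle mice. The sums did not overlap and placed the mice in the same order as Cst8, though the brightest markers carry most of such a sum. The part of spermatids in the Cst8 difference was not tested.

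Vcam1, read by its brightest probe, lay at 0.49 and -1.03 in DEHP mice 1 and 4, against -0.95, 0.56 and 0.93 in vehicle mice 1, 2 and 4. The low pair again was DEHP mouse 4 with vehicle mouse 1, and the groups overlapped. The difference was -0.45 (SE 0.70, 95% interval -2.19 to 1.28, adjusted p = 1.00 in limma). Its second probe, at 0.43 and -0.23 in DEHP mice against -0.32, -0.12 and 0.24 in vehicle mice, gave a difference of the other sign, 0.17 (SE 0.29). The third probe, at 0.00 and -0.45 in DEHP mice against -0.02, 0.15 and 0.31 in vehicle mice, gave -0.37 (SE 0.22) and placed DEHP mouse 4 alone at the bottom. The sign of the Vcam1 difference thus depended on the probe, and none of the 3 passed the test.

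**Figure D2:**
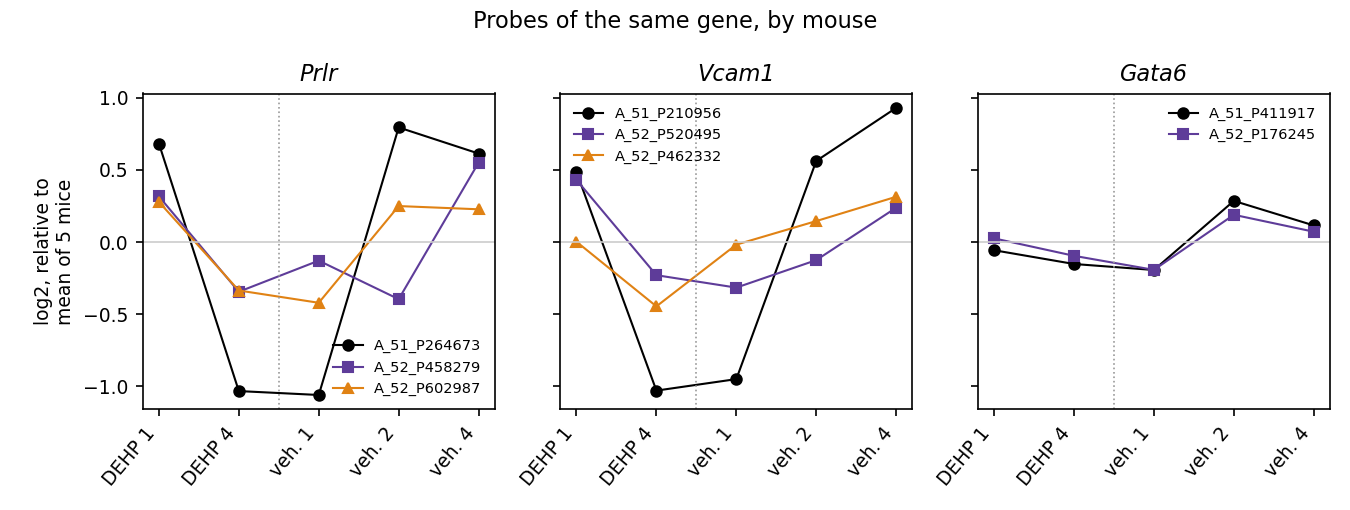
Values of the kept probes of Prlr, Vcam1 and Gata6 in each mouse (log2, relative to the mean of the 5 mice), DEHP mice left of the dotted line. The brightest probe, in black, ranges most widely for each gene, and vehicle mouse 2 is highest with the brightest Prlr probe and lowest with the second.

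Of the GATA factors, Gata6 was measured and Gata4 was at the background of the array. Gata6, on chromosome 18, lay at -0.06 and -0.15 in DEHP mice 1 and 4, against -0.19, 0.29 and 0.12 in vehicle mice 1, 2 and 4, with normalized log2 intensities of 11.0 and 10.9 in DEHP mice, against 10.9, 11.3 and 11.2 in vehicle mice. Its range of 1.39-fold was reached or passed by 71.9% of all genes, and the difference was -0.17 (SE 0.22, 95% interval -0.73 to 0.38), or -0.30 to -0.07 without 1 mouse. A second kept Gata6 probe was well above background on 1 of 12 arrays in DEHP and 6 of 12 in vehicle channels. It lay near the floor and passed the filter only through vehicle mice 2 and 4, its highest mice. Its order of the vehicle mice, the same as above, and its difference of -0.06 (SE 0.20) are thus no separate support. One Gata4 probe was well above background on 3 of 12 arrays in each group, at log2 intensities of 6.22 and 6.13 in DEHP mice, against 6.06, 6.34 and 6.02 in vehicle mice. The other was well above background on none. No fold change is given for Gata4, since both groups lay at background.

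Across the 15828 genes tested, 0 (0.000%) passed an adjusted p of 0.05 in limma, and 135 (0.853%) had an unadjusted p under 0.05. None of the 9 kept genes was among either. The groups did not overlap for 1452 genes (9.17%), and for 1 of the 9 genes, Cst8. Both DEHP mice were above all vehicle mice for 3.95% of all genes. The difference was below 0 for 8 of the 9 genes, with Cst8 as the exception, and for 51.6% of all genes. The median difference was -0.29 over the 9 genes and -0.01 over all genes tested. The 8 genes are not 8 separate observations of a direction, since the same mouse, DEHP mouse 4, was low in each of them. Without DEHP mouse 4 the difference turned positive for Insl3 (0.78), Prlr (0.57), Ptgds (0.72), Rarres1 (0.10) and Vcam1 (0.30), and the median over the 9 genes became 0.19. Without DEHP mouse 1 it was -1.42 for Insl3 and -1.82 for Ptgds, and DEHP mouse 4 lay outside the range of the vehicle mice for 6 of the 9 genes, Cst8 among them, against 57.9% of all genes. Cst8 kept values from 0.19 to 0.29 whichever mouse was left out, with the sign fixed in advance by the lack of overlap of its groups.

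**Figure D3:**
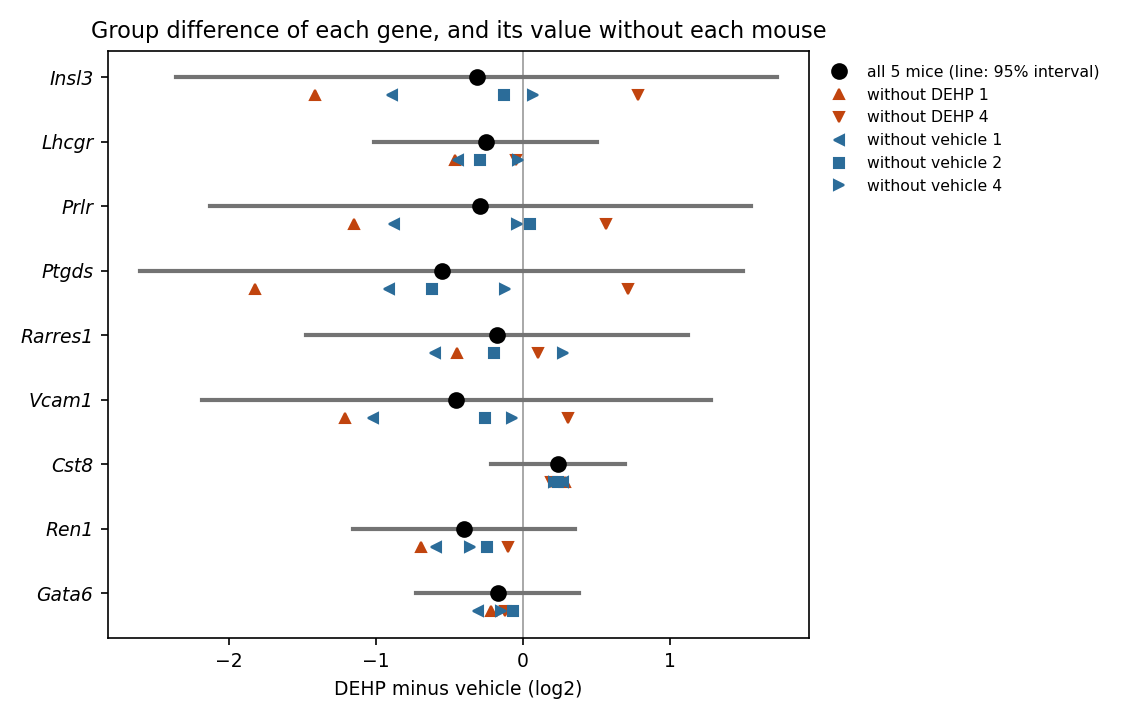
Difference DEHP minus vehicle (log2, x axis) of each gene over all 5 mice, in black with its 95% interval, and without each mouse in turn, in orange for a DEHP mouse and blue for a vehicle mouse. All intervals cross 0, and for Insl3, Prlr, Ptgds, Rarres1 and Vcam1 the value lies on the other side of 0 once DEHP mouse 4 is left out.

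The same dependence was seen pair by pair. For Insl3, DEHP mouse 1 over vehicle mouse 1 gave log2 ratios of 2.05 and 1.87 with DEHP RNA in Cy5 and in Cy3, while DEHP mouse 4 over vehicle mouse 4 gave -1.86 and -2.48. For Ptgds, the same pairs gave 1.53 and 1.32, and -2.23 and -3.04. The arrays of a pair thus differed far less from each other than the pairs did, with a median gap between dye orientations of 0.33 for Insl3 and 0.46 for Ptgds. For Prlr the 6 pairs ran from -1.82 to 1.76, with 3 above and 3 below 0. For Vcam1 the log ratio was below 0 in 5 of 6 pairs, from -1.95 to 1.45.

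**Figure D4:**
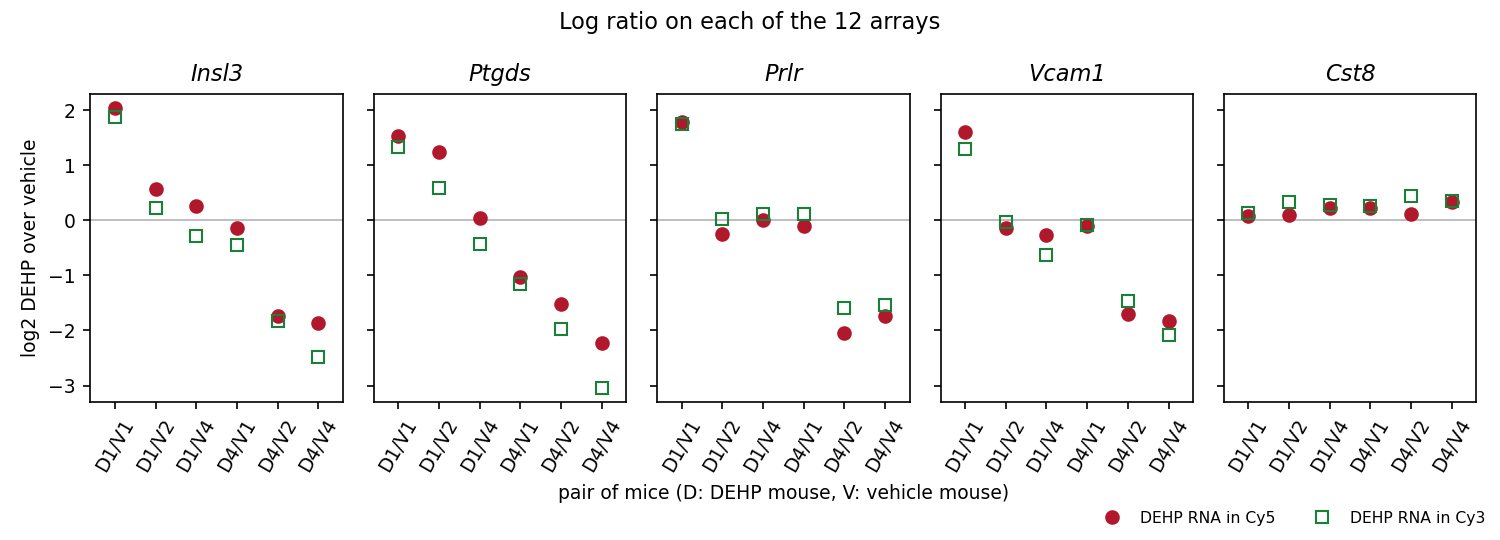
Log2 ratio of DEHP over vehicle (y axis) on each of the 12 arrays for 5 genes, by pair of mice (D1/V1 is DEHP mouse 1 over vehicle mouse 1), with DEHP RNA in Cy5 as filled circles and in Cy3 as open squares. Insl3 runs from 2.05 in the first pair to -2.48 in the last, and Cst8 is above 0 on all 12 arrays.

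The slides hold different vehicle mice. Slides 1 and 2 hold vehicle mice 1 and 2, where DEHP RNA was labelled with Cy5 on slide 1 and with Cy3 on slide 2, and slide 3 holds vehicle mouse 4 in both orientations, so slide 3 and vehicle mouse 4 cannot be told apart. The mean log ratio of Insl3 was 0.19, -0.045 and -1.09 on slides 1, 2 and 3, and that of Ptgds 0.053, -0.30 and -1.41. Those of Cst8 were 0.13, 0.29 and 0.30, all above 0. Ren1 was below 0 on each slide, at -0.25, -0.47 and -0.47, as was Gata6, at -0.13, -0.18 and -0.22.

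Since each extract was hybridised repeatedly, mice within a group could be compared with each other, which measures animals and their captures and not the treatment. Between DEHP mouse 4 and DEHP mouse 1, 7 of the 9 genes were lower in mouse 4 and none higher at an adjusted p under 0.05 in limma. Of all 15828 genes, 77.4% were called in either direction, 6504 lower and 5747 higher in mouse 4. Insl3 was lower by a log2 difference of -2.20 (SE 0.07), Ptgds by -2.54 (SE 0.08), Prlr by -1.72 (SE 0.06) and Vcam1 by -1.52 (SE 0.08). Cst8 (0.10, adjusted p = 0.0890 in limma) and Gata6 (-0.10, adjusted p = 0.0879 in limma) were not called. Between vehicle mouse 1 and vehicle mouse 2, 8 of the 9 genes were lower in mouse 1 and none higher. Of all genes, 71.0% were called in either direction, 6017 lower and 5221 higher in mouse 1. Between vehicle mouse 1 and vehicle mouse 4, 8 were again lower in mouse 1, with Insl3 at -1.92 (SE 0.08) and Rarres1 at -1.74 (SE 0.06). Here 68.8% of all genes were called in either direction, 5587 lower and 5306 higher in mouse 1. Between vehicle mouse 2 and vehicle mouse 4, 3 genes (Prlr, Ren1 and Gata6) were higher and 5 lower in mouse 2. In this comparison 57.4% of all genes were called in either direction, 4609 higher and 4473 lower in mouse 2. Cst8 was not called in any of the 4 comparisons.

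With each gene read by its brightest probe, DEHP mouse 4 and vehicle mouse 1 were the lowest mice for 8 of the 9 genes. The same held for 8 of the 10 genes of the Leydig reference list and for 29.3% of all genes. It also held for 9 of 14 macrophage, 8 of 11 endothelial, 5 of 8 myoid and 4 of 5 blood markers. Among Sertoli cell markers it held for 2 of 16, and for 0 of 20 spermatid and 0 of 13 spermatocyte markers. The order was thus not particular to Leydig cell genes. The median of the Leydig reference list was 0.71 and -0.76 in DEHP mice 1 and 4, against -0.55, 0.29 and 0.35 in vehicle mice 1, 2 and 4. Once each mouse was set relative to that median, the log2 range across mice was 1.07 in place of 2.20 for Insl3 and 1.57 in place of 2.68 for Ptgds. It was wider for Cst8, 1.57 in place of 0.35, for Gata6, 1.38 in place of 0.48, and for Lhcgr, 1.06 in place of 0.90. On that scale none of the 9 genes separated the groups, against 410 of all genes tested, and the differences were -0.26 for Insl3 and 0.30 for Cst8.

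Markers of other cells also moved with the mice. Spermatid markers had DEHP mouse 4 and vehicle mouse 1 as the highest mice in 15 of 20 genes, against 4180 of all 15828 genes. Of the 20 markers, 19 had a difference above 0, with a median of 0.60. Their summed normalized intensity, in units of 1000, was 787 and 968 in DEHP mice, against 668, 488 and 476 in vehicle mice, which did not overlap. Such a sum is carried mostly by the brightest markers. The list medians did overlap, at -0.01 and 0.75 in DEHP mice, against 0.20, -0.55 and -0.36 in vehicle mice. Single markers separated the groups in 4 of 20 cases, against 9.17% of all genes. On all arrays, 18 of the 20 were well above background. In the same units, the 10 genes of the Leydig reference list summed to 86.9 and 26.3 in DEHP mice, against 33.3, 65.9 and 81.7 in vehicle mice. Spermatocyte markers (13 tested) summed to between 217 and 312 in DEHP and between 214 and 282 in vehicle mice. Macrophage markers (14 tested) had medians of 0.47 and -0.24 in DEHP mice, against -0.35, -0.03 and 0.45 in vehicle mice, and summed to between 75.0 and 144 in DEHP and between 72.8 and 154 in vehicle mice. Endothelial markers (11 tested), a cell type in which Vcam1 is also known, had medians of 0.24 and -0.26 in DEHP mice, against -0.66, 0.35 and 0.18 in vehicle mice, with sums from 8.41 to 13.8 in DEHP and from 5.76 to 21.6 in vehicle mice. Myoid markers (8 tested) summed to between 24.5 and 52.0 in DEHP and between 33.7 and 133 in vehicle mice. Sertoli cell markers (16 tested) summed to between 36.6 and 45.0 in DEHP and between 54.4 and 63.4 in vehicle mice, with 14 of 16 differences below 0. Their medians were -0.19 and -0.09 in DEHP mice, against 0.17, 0.08 and 0.05 in vehicle mice. Neither the sums nor the medians overlapped, and single markers separated the groups in 4 of 16 cases. Blood markers (5 tested) summed to between 8.41 and 25.7 in DEHP and between 16.3 and 63.9 in vehicle mice. The part of these cell types in the values of the 9 genes was not tested.

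**Figure D5:**
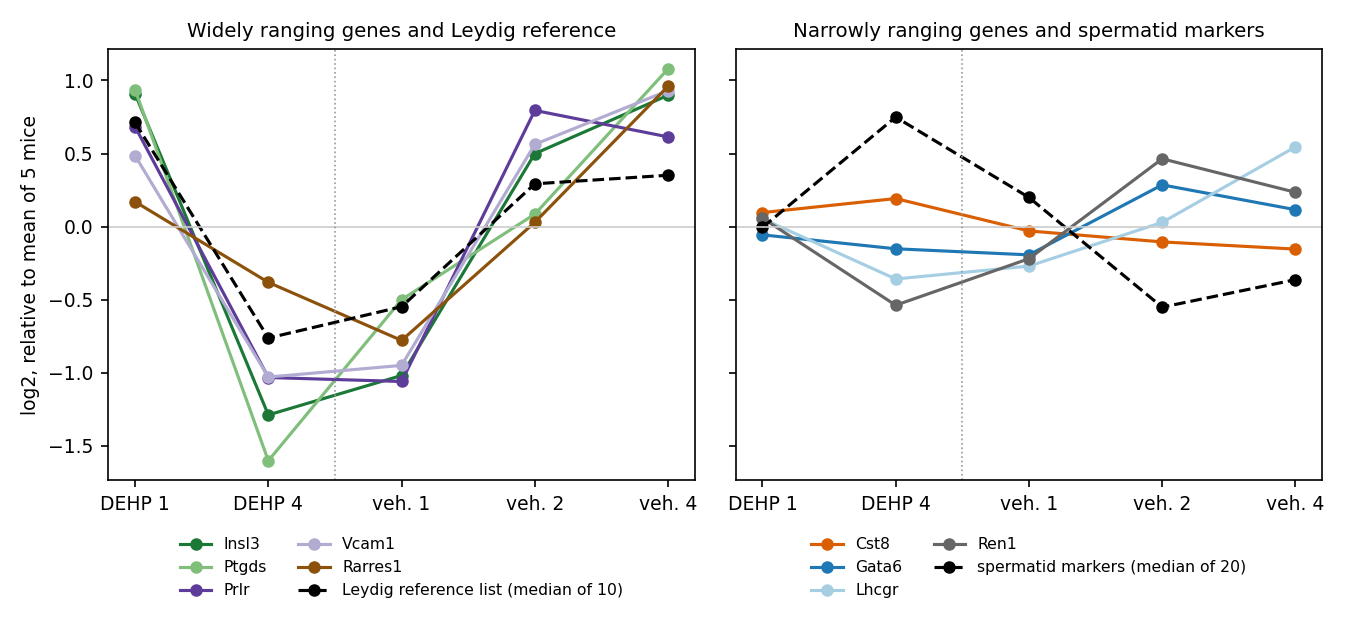
Values in each mouse (log2, relative to the mean of the 5 mice) of the 5 genes of widest range with the median of the Leydig reference list, left, and of the other 4 genes with the median of the spermatid markers, right; DEHP mice stand left of the dotted line. The Leydig reference list is lowest in DEHP mouse 4 (-0.76), where the spermatid markers are highest (0.75).

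The genes nearest to each in their 5 values, among 10228 genes well above background on all arrays and by the root mean square distance, were for Insl3 Ttpa (0.09), Klk4, Nat8f5, Chchd10 and Elovl5. The nearest to Ptgds was Hsd3b1 (0.09), a steroidogenic enzyme of the reference list, followed by Pon3, NAP046356-1 (the name in the file), Gsto1 and Cpq. Prlr was nearest to Rnf213 (0.07), and Igfbp7 and Aldh1l1 were among the next. Vcam1 was nearest to Daglb, Klf15, Akr1cl, Nat8f1 and Pdgfrl, Rarres1 to Bnip3 (0.04), Fcgr2b, Calcrl and Scp2, Ren1 to Vps11 (0.04), Cdc5l and Drosha, and Lhcgr to Rpl27a (0.04) and Dstn. Cst8 was nearest to Rassf1 (0.03), Ss18l1, Thoc6, Fbxo2 and Asnsd1, and Gata6 to M60510 (the name in the file) and Get1. Among the 9 genes themselves the closest pairs were Prlr with Vcam1 (0.20), Gata6 with Ren1 (0.20), Insl3 with Vcam1 (0.23) and Insl3 with Prlr (0.24).

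The other genes of the same pathways were read from lists, with counts and medians only. Of the INSL3 and luteinising hormone genes, 15 were tested, 7 above and 8 below 0 with a median of 0.00 and none past an adjusted p of 0.05 in limma. Those of lowest p were Prkar2a, a regulatory subunit of protein kinase A, at 0.72 (SE 0.44), and Crem, a cyclic AMP-responsive transcription regulator, at 0.46 (SE 0.52). Rxfp2, the INSL3 receptor, was at -0.27 and 0.40 in DEHP mice, against 0.42, -0.36 and -0.19 in vehicle mice. Its highest mice, DEHP mouse 4 and vehicle mouse 1, were those lowest for Insl3. The same mice were highest for 4180 of all 15828 genes and for 15 of the 20 spermatid markers.

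Of 10 genes of the prolactin pathway, 4 were above and 6 below 0 with none past the adjusted threshold. Stat3, a signal transducer, lay at 0.45 and 0.47 in DEHP mice, against -0.88, 0.24 and -0.27 in vehicle mice, which did not overlap, and the difference was 0.76 (SE 0.35). Ghr, the related growth hormone receptor, also had both DEHP mice above all vehicle mice, with a difference of 0.30 (SE 0.20). Of 8 genes around prostaglandin D2, 2 were above and 6 below 0, none past the threshold. Hpgd, which breaks prostaglandins down, differed by 0.86 (SE 0.54) and Akr1b3, an aldo-keto reductase, by -0.57 (SE 0.44).

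The retinoid-responsive and latexin genes were 4 above and 2 below 0, with Rbp4, a retinol carrier, at -0.48 (SE 0.28) and no overlap, and Stra6, its receptor, at 0.45 (SE 0.31). Of 10 ligands and adhesion molecules around VCAM1, 2 were above and 8 below 0. Ncam1 lay at 0.61 (SE 0.26) with no overlap, and Itgb7, an integrin subunit of the ligands, at -0.82 (SE 0.44). Of 12 type 2 cystatins and their cathepsin targets, 4 were above and 8 below 0. Cst9, also one of the Sertoli cell markers, lay at -0.24 and -0.56 in DEHP mice, against 0.57, -0.07 and 0.29 in vehicle mice. It differed by -0.66 (SE 0.26) and had an unadjusted p of 0.0485 and an adjusted p of 1.00 in limma. Cst13 differed by 1.12 (SE 0.52).

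Of 9 genes of the renin-angiotensin system, 6 were above and 3 below 0. Ace, the converting enzyme, of which a form is known from spermatids, differed by 0.82 (SE 0.43), and Agtr1a, an angiotensin receptor, by 0.52 (SE 0.28), without overlap of the groups. Agt, the substrate of renin, lay at 1.03 and -1.90 in DEHP mice, against -1.33, 0.93 and 1.27 in vehicle mice, with the same low mice as Ren1 at a wider range. Of 12 GATA factors and partners, 4 were above and 8 below 0. Lhx9, a homeobox factor of the gonad, differed by -0.70 (SE 0.31) with no overlap, and Nr0b1, a repressor of NR5A1, by -0.33 (SE 0.26). None of these genes passed an adjusted p of 0.05 in limma, for which the background was the 0.000% of all genes given above.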

How the data were processed

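Laser-captured Leydig cell RNA of 2 DEHP and 3 vehicle mice was hybridised in pairs to 12 two-colour arrays. The deposited scanner files hold spot intensity (mean signal and median background per channel) from Feature Extraction 9.5.1.1, a processed intensity and a log10 ratio (red over green, used to check directions), per the file headers. Flags of 0 or 1, deposited with each spot under other columns, mark spots as saturated, outlying or well above background. The series' deposited value table holds the authors' log2 ratios. Set against the scanner's ratios it ran as DEHP over vehicle (r = 0.915 to 0.993, slopes 0.842 to 0.932, column medians -0.06 to 0.00), and its filter and exact normalization are not given in the sources used here. The submitters' processing notes name limma.

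With limma 3.58.1 in R 4.3.3, normexp (offset 50) corrected the background and arrays were normalized by loess with control spots at weight 0. Outlier spots (0.332% to 0.604%) were left out, and spots of the same probe averaged. Least squares on the 12 log ratios gave 5 mouse values and a dye effect. Probes were kept where at least 2 mice had them well above background on 50% or more of their arrays, and the brightest probe stood for its gene. The group test was lmFit and eBayes over the 5 mice, with 3 residual degrees of freedom and p adjusted over all genes by Benjamini-Hochberg. Extracts of the same group were compared on the 12 arrays. The functions were tested on simulated arrays.

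The 10 genes, the lists and the tests were chosen with earlier results of these data known. Named were all members with every kept probe, from each list the genes past the threshold or else the 2 of lowest p, and genes among the 5 nearest to each member (not all are reported here), with a few added in the text after their values were seen (Rxfp2 and Agt). Mouse numbers shared by the groups were not taken as pairs in the main test. The deviations of mice with the same number correlated at -0.73 and -0.56 over genes, which cannot show whether those mice were handled as pairs. Alternatives covered background, normalization, filters, probes, dyes, slides, left-out mice, the Leydig reference scale and the authors' table.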

Additional observations from a re-analysis of the deposited data

How the results depend on the processing

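Under every mouse-level setting tried, and without any 1 mouse, 0 genes had an adjusted p under 0.05 in limma. With the 12 arrays taken as independent, which counts each mouse several times, 2123 genes passed, 4922 had an unadjusted p under 0.05, and Cst8 was the 1 of the 9 genes past the threshold, at an adjusted p of 0.00834. The count of genes at an unadjusted p under 0.05, 135 in the main setting, was 245 with Agilent's processed signals, 70 with median centring in place of loess, 64 in the authors' value table, 436 with no filter on dim probes, 47 with probes well above background on every array, 203 with the arrays that had DEHP RNA in Cy5, 2 on the Leydig reference scale, and 54 to 1071 without 1 mouse. The count of genes whose groups did not overlap, 1452, became 935 in the authors' table, 2468 and 858 with no filter and the strict filter, 410 on the Leydig reference scale, and 2492 to 9157 without 1 mouse, where fewer mice have to be separated. With the mouse number as a replicate block, on mice 1 and 4 of each group, 14 genes had an unadjusted p under 0.05 and 3040 did not overlap, and the difference of Prlr was 0.048 in place of -0.29. Other reversals were 0.19, 0.053 and 0.34 for Insl3, Ptgds and Rarres1 within slide 1, 0.052, 0.072 and 0.20 for Lhcgr, Prlr and Rarres1 within slide 2, and 0.17 for Vcam1 with its next brightest probe, an alternative chosen after the data were seen. Without 1 mouse the differences ran from -1.42 to 0.78 for Insl3, -1.15 to 0.57 for Prlr, -1.82 to 0.72 for Ptgds, -0.60 to 0.27 for Rarres1 and -1.21 to 0.30 for Vcam1, -0.46 to -0.03 for Lhcgr, -0.70 to -0.10 for Ren1, -0.30 to -0.07 for Gata6 and 0.19 to 0.29 for Cst8, and the median over the 9 genes from -0.70 to 0.19. Cst8, Ren1 and Gata6 had no reversal. Lhcgr was -1.04 and Ren1 -0.65 with Agilent's processed signals, Lhcgr -0.42 with offset 10, and Insl3 -0.13 and Cst8 0.37 with median centring. Cst8 overlapped between the groups with median centring and on the Leydig reference scale, and at an unadjusted p of 0.0298 it was the 1 gene of the 10 under 0.05 with no filter. A dye effect per slide could not be fitted, since slides 1 and 2 each hold 1 orientation. The causes of these shifts were not tested. Insl3, Ptgds, Lhcgr and Cst8 had no value in the authors' table.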
